A study of Mus musculus with 10 samples.

Results

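The GATA1-TAL1 erythroid transcription factors were examined in lineage-negative (Lin-) bone marrow cells as a set of 10 genes: Gata1, Gata2, Klf1, Tal1, Lmo2, Ldb1, Zfpm1, Nfe2, Gfi1b and Lyl1. They were picked by name from the deposited table of 55359 genes, and all 10 were found and passed the filter on low values. RNA-seq was performed on Lin- cells, which are marrow cells depleted of those that carry mature lineage markers, with 5 libraries of the Dhx9f/f genotype (WT) and 5 of Dhx9f/f;MX1 (cKO). Both groups carry the floxed Dhx9 allele, and the cKO group also carries Cre recombinase under the Mx1 promoter, which responds to interferon and was induced with poly(I:C), a double-stranded RNA mimic. Mx1-Cre acts in many interferon-responsive cells and is not limited to blood. The methods of the study name the poly(I:C) injection for Mx1-Cre mice, as 3 doses given every other day. They place the analysis of mice at 7 days from the first dose, unless stated otherwise. Its figure legends date both genotypes from the first injection in other experiments. The injection is not listed separately for the sequenced WT mice, whose age is not given in the sources used here. The progenitor markers Kit and Cd34 were at 36.56 to 54.36 and 20.1 to 28.57 FPKM in WT, and Cd34 was at 1.05 to 6.78 in the libraries labelled cKO. The targeted gene was checked as well. Dhx9 was at 65.43 to 72.42 FPKM (fragments per kilobase of gene and a fixed number of mapped fragments) in WT, against 130.82 to 156.49 in the libraries labelled cKO. It was thus higher in the libraries in which it should have been deleted (adjusted p = 1.39e-05, limma, with a 95% interval of 0.86 to 1.14 for the log2 fold change), and every direction given here rests on labels that Dhx9 goes against. The libraries held about 13789058 to 18821135 mapped fragments, and all 10 members lay far above the 0.159 to 0.218 FPKM that 3 fragments give in a gene of 1000 bp, with a lowest member value of 9.48 FPKM. Xist, the X-inactivation RNA of female cells, was at 99.19 to 127.76 FPKM in WT libraries 3, 4 and 5 and at most 0.09 in the other 7 libraries, while the Y-linked Ddx3y was at 19.66 to 38.53 FPKM in those 7 and at most 0.05 in the 3, so that sex differed between the groups as well.

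Commitment of a blood progenitor to the red cell lineage is driven by a protein complex in which GATA1, a zinc-finger factor that binds GATA motifs, and TAL1, a basic helix-loop-helix factor that binds E-boxes with an E-protein partner, are bridged by LMO2 and LDB1, which do not bind DNA themselves. GATA2 occupies many of the same sites in stem cells, early progenitors and mast cells, and its replacement by GATA1 during erythroid maturation is known as the GATA switch. ZFPM1 (FOG1) is the cofactor of GATA1 needed for this exchange, GFI1B is a repressor of erythroid and megakaryocytic cells, KLF1 activates beta-globin and other late erythroid genes through CACCC boxes, NFE2 is the large subunit of a factor that acts at globin control regions and in platelet formation, and LYL1 is the closest relative of TAL1, used mainly in stem and early progenitor cells.

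The members lie on chromosomes X (Gata1), 2 (Lmo2 and Gfi1b), 4 (Tal1), 6 (Gata2), 8 (Lyl1, Klf1 and Zfpm1), 15 (Nfe2) and 19 (Ldb1) of GRCm39. Lyl1 and Klf1 both lie on the plus strand of chromosome 8, with 196988 bp between the end of Lyl1 (85427936 to 85431569) and the start of Klf1 (85628557 to 85631934). The 250 bp upstream of the start of each member's canonical transcript (GENCODE vM39) were searched on both strands for motifs of the complex itself. A GATA site, taken as AGATAA in which the last base may also be G and the first base may also be T, was present in 3 of the 10 windows and in 26.2% of 21770 protein-coding genes. The composite of E-box and GATA letters that the TAL1-GATA1 complex is known to bind (CTGNNNNNNNNGATA or CTGNNNNNNNNNGATA) was present in 2 of the 10 and in 3.58% of all, the E-box CAGATG in 2 and in 13.0%, and the CACCC box CCACACCC in 0 and in 3.56%. The windows with a composite are those of Klf1 and Gfi1b, where it overlaps the GATA site, and the third GATA site is in that of Gata2. CAGATG was in the windows of Klf1 and Zfpm1, and those of Gata1, Tal1, Lmo2, Ldb1, Nfe2 and Lyl1 held none of the 4 motifs. The windows of Klf1, a gene that overlaps the annotated span of Gcdh on the other strand, and of Gfi1b are shown because they hold a composite. Capitals mark every base within a match, the unspecified bases of a composite included, and in Klf1 the composite and its GATA site are on the minus strand. A match is not evidence of binding.
Klf1, plus strand, chr8:85628307-85628556: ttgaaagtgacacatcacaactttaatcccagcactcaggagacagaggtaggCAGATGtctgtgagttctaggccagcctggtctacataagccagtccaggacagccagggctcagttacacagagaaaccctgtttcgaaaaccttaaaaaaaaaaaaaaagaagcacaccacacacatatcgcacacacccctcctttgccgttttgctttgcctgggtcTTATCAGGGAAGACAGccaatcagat
Gfi1b, minus strand, chr2:28511995-28512244: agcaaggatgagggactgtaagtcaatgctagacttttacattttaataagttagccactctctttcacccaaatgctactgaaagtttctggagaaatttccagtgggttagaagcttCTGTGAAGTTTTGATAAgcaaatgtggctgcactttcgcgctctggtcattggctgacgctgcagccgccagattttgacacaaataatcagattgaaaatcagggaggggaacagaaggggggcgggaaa

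To ask whether the erythroid factors differ between WT and cKO Lin- cells, limma was fitted to log2(FPKM + 0.1) of all 18742 genes whose mean reached 0.1 FPKM. At the limits of the study, which asked for a 2-fold change besides an adjusted p under 0.05, 0 of the 10 members were called higher and 0 lower by limma, against 4.6% and 16.8% of all genes tested. On the adjusted p alone, 6 members were higher in the libraries labelled cKO (Gata1, Gfi1b, Zfpm1, Tal1, Klf1 and Ldb1), 3 were lower (Gata2, Lyl1 and Nfe2) and Lmo2 was neither, against 16.7% of all genes higher and 28.3% lower. The same 9 had an unadjusted p under 0.05. Below, "rose" and "fell" are used for changes with an adjusted p under 0.05, all of which were smaller than 2-fold as estimated. The median log2 fold change of the 10 was 0.40, against -0.11 over all genes tested, and their range was -0.90 to 0.88. The 7 libraries without Xist leave 2 WT against 5 labelled cKO. In them all 10 members kept their direction, and 2 were higher on the adjusted p alone (Gata1 and Gfi1b) and 1 lower (Gata2). With Xist as a covariate, 3 were higher (also Tal1) and 1 lower. In bulk RNA, fewer cells of a type and less RNA per cell cannot be told apart.

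Gata1, the master regulator of red cell genes, had FPKM values of 51.8, 60.72, 77.36, 51.91 and 48 in WT 1 to 5, against 95.58, 109.38, 103.38, 102.49 and 92.03 in the libraries labelled cKO. The groups did not overlap, and the nearest WT library was number 3. It rose by 1.76-fold (log2 fold change 0.81, standard error 0.119, adjusted p = 3.60e-04, limma), with a 95% interval from 0.55 to 1.08 on the log2 scale. Gata1 is X-linked, and the WT libraries without Xist (51.8 and 60.72 FPKM) lay within the range of the 3 with it. Its obligate cofactor Zfpm1 was at 39.93, 62.9, 65.77, 44.03 and 40.9 FPKM in WT, against 62.95, 81.19, 79.6, 89.1 and 78.04 in the libraries labelled cKO. It rose by 0.65 on the log2 scale (standard error 0.157, adjusted p = 0.00624, limma), with library cKO 1 below WT library 3. In the libraries without Xist, Zfpm1 had a log2 fold change of 0.63 with an adjusted p of 0.0530, so that this call was lost.

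Gfi1b, the repressor that acts downstream of GATA1, had the largest rise of the 10. It was at 52.12, 60.53, 67.44, 47.46 and 45.89 FPKM in WT, against 114.27, 102.9, 100.37, 99.66 and 82.45 in the libraries labelled cKO. No library labelled cKO was below any WT library. The rise was 1.84-fold (log2 fold change 0.88, 95% interval 0.61 to 1.14, standard error 0.119, adjusted p = 2.48e-04, limma). The interval reaches past a 2-fold change, as do those of Gata1, Gata2 and Lyl1. In this fit a 2-fold difference is thus within the error for these 4 genes and not for the other 6. Zfpm1 came closest among the 6, with an upper bound of 0.995 on the log2 scale.

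**Figure D1:**
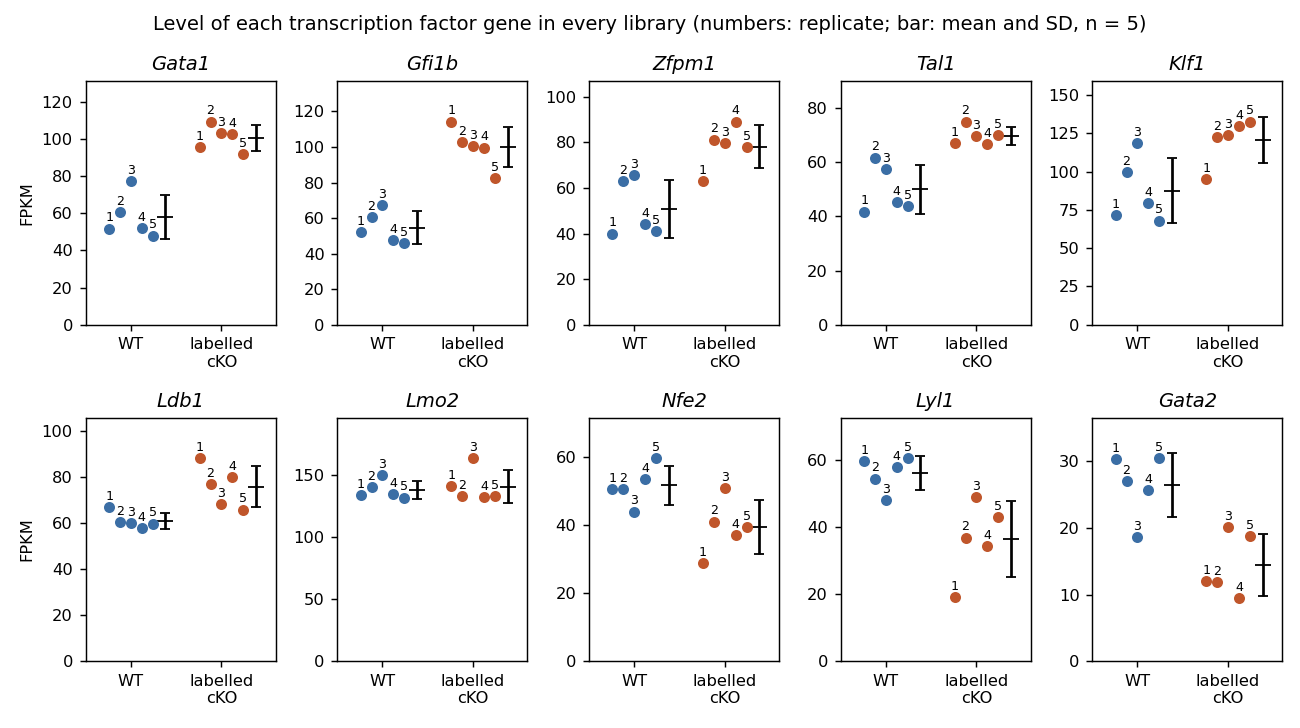
FPKM of each of the 10 genes (vertical axis, from 0) in the 5 WT libraries (blue) and the 5 labelled cKO (orange), with the replicate number at each point and the mean and SD of each group (n = 5) beside it. Gata1, Gfi1b and Tal1 show no overlap between groups, Lmo2 is at 131.62 to 163.1 FPKM throughout, and WT library 3 is the lowest WT library for Nfe2, Lyl1 and Gata2.

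Tal1, the DNA-binding partner, and Ldb1, a bridge, rose, and the other bridge Lmo2 did not pass the test. Tal1 was at 41.71, 61.69, 57.37, 45.15 and 43.68 FPKM in WT, against 66.99, 74.94, 69.52, 66.52 and 69.95 in the libraries labelled cKO. The groups did not overlap, and the rise was 1.41-fold (log2 fold change 0.50, standard error 0.109, adjusted p = 0.00364, limma). In the libraries without Xist it was 0.45, with an adjusted p of 0.0570. Ldb1, the protein that dimerizes and links enhancers to promoters, was at 67.22, 60.54, 60.09, 57.96 and 59.86 FPKM in WT, against 88.27, 77.1, 68.33, 80.12 and 66.03 in the libraries labelled cKO. It rose by 1.24-fold (log2 fold change 0.31, standard error 0.0830, adjusted p = 0.0113, limma), and library cKO 5 was below WT library 1. This call was lost with quantile normalization (0.20, adjusted p = 0.0861) and in the libraries without Xist (0.24, adjusted p = 0.192). Lmo2, the LIM-only bridge, was the most abundant member in both groups and differed least, at 133.8, 139.93, 149.55, 134.65 and 131.62 FPKM in WT and 141.08, 132.99, 163.1, 132.03 and 132.79 in those labelled cKO. Its log2 fold change was 0.02 (95% interval -0.13 to 0.18, adjusted p = 0.819, limma), and the sign turned with quantile normalization (-0.071), with an equal sum per library (-0.018) and without library cKO 3 (-0.033). The groups did not overlap for 3 members, all higher in the libraries labelled cKO (Gata1, Gfi1b and Tal1), against 10.6% of all genes tested, and for 0 in the other direction, against 21.6%. A two-sided exact permutation test of each member over the 10 libraries gave p = 0.00794 for these 3, a value that groups without overlap always give here and the lowest that is possible. By the same exact test p was 0.0159 for Ldb1, Zfpm1 and Lyl1, 0.0238 for Gata2, 0.0317 for Nfe2, 0.0397 for Klf1 and 0.77 for Lmo2.

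Klf1, whose product switches on adult beta-globin, was at 71.57, 99.89, 118.44, 79.61 and 67.96 FPKM in WT, against 95.19, 122.68, 123.6, 129.63 and 132.63 in the libraries labelled cKO. Library cKO 1 lay among the WT libraries, and the other 4 were above all of them. Klf1 rose by 1.40-fold (log2 fold change 0.49, standard error 0.155, adjusted p = 0.0245, limma). The call was lost when WT library 1 (0.42, adjusted p = 0.0641), 4 (0.46, 0.0568) or 5 (0.40, 0.0619) or library cKO 2 (0.48, 0.0520), 4 (0.46, 0.0560) or 5 (0.45, 0.0559) was left out, and in the libraries without Xist (0.50, 0.0698). Klf1 rose and Lyl1, on the same strand of chromosome 8, fell.

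Gata2, Lyl1 and Nfe2 fell. Gata2, the stem and progenitor GATA factor, was at 30.34, 27.03, 18.62, 25.63 and 30.42 FPKM in WT, against 11.98, 11.91, 20.08, 9.48 and 18.76 in the libraries labelled cKO. All but WT library 3 were above every library labelled cKO. Gata2 was 1.87-fold lower (log2 fold change -0.90, 95% interval -1.38 to -0.43, standard error 0.215, adjusted p = 0.00567, limma). It passed the 2-fold limit when WT library 3 (-1.02), library cKO 3 (-1.04) or library cKO 5 (-1.01) was left out, in the libraries without Xist (-1.04, adjusted p = 0.0440) and with Xist as a covariate.

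Lyl1 was at 59.82, 54.52, 48.2, 58.02 and 60.57 FPKM in WT, against 19.09, 36.91, 49.04, 34.49 and 43.04 in the libraries labelled cKO. Library cKO 1 was the lowest, and library cKO 3 was just above WT library 3. It was 1.61-fold lower (log2 fold change -0.68, standard error 0.211, adjusted p = 0.0216, limma). Lyl1 kept this direction, but the limma call was lost, without WT library 1 (-0.66, adjusted p = 0.0505) and in the libraries without Xist (-0.71, adjusted p = 0.159). Nfe2 was at 50.77, 50.58, 44.07, 53.71 and 59.74 FPKM in WT, against 28.97, 41.14, 50.94, 37.12 and 39.5 in the libraries labelled cKO. Library cKO 3 lay within the WT range. The fall was 1.32-fold (log2 fold change -0.40, standard error 0.134, adjusted p = 0.0298, limma). It was lost when WT library 1 (-0.41, adjusted p = 0.0546), 2 (-0.41, 0.0523), 4 (-0.39, 0.0639) or 5 (-0.35, 0.0749) or library cKO 4 (-0.39, 0.0631) or 5 (-0.41, 0.0502) was left out, with median-ratio scaling (-0.30, 0.0770), in the libraries without Xist (-0.38, 0.185) and with no trend (adjusted p = 0.0528).

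FPKM are scaled to gene length, so levels can be set beside each other, within the limits of the unstated gene lengths. In WT, Lmo2 (mean 138 FPKM) was above Klf1 (87.5), Klf1 above Ldb1 (61.1), and Gata2 (26.4) below all others, in each case with no overlap of their ranges over 5 libraries. Klf1 (67.96 to 118.44 FPKM) was not clear of every gene below it, since Gata1 reached 77.36. The 7 genes in between, from Ldb1 to Tal1 (49.9), each overlapped their neighbours among the 7 in the order. In the libraries labelled cKO, the order was Lmo2 (140.4), Klf1 (120.7), Gata1 (100.6), Gfi1b (99.9), Zfpm1 (78.2), Ldb1 (76.0), Tal1 (69.6), Nfe2 (39.5), Lyl1 (36.5) and Gata2 (14.4). There, the gap without overlap lay between Tal1 and Nfe2, with the 7 genes that rose or did not pass the test on one side and the 3 that fell on the other.

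Ratios of opposed or related factors within a library were described without a test, since the pairs were chosen with earlier results of these data known. Gata1 was at 1.71, 2.25, 4.15, 2.03 and 1.58 times the level of Gata2 in WT libraries 1 to 5 and at 7.98, 9.18, 5.15, 10.8 and 4.91 times in those labelled cKO. On the log2 scale the mean was 1.13 ± 0.551 in WT and 2.85 ± 0.504 in the libraries labelled cKO (SD, n = 5 each), and the groups did not overlap, with 0.24 between WT library 3 and library cKO 5. Tal1 was at 0.697 to 1.19 times the level of Lyl1 in WT and at 1.42 to 3.51 times in the libraries labelled cKO. Tal1 was below its relative in WT libraries 1, 4 and 5, and above it in all 5 labelled cKO. Klf1 was at 2.42 to 6.06 times the level of Fli1, the ETS factor that opposes it in the choice between red cells and megakaryocytes, in WT and at 14.9 to 51.9 times in those labelled cKO. Gata1 was at 1.04 to 2.55 times the level of Spi1, which encodes the myeloid factor PU.1 that antagonizes GATA1, in WT and at 6.33 to 10.7 times in those labelled cKO. The last 2 ratios moved mostly through Fli1 and Spi1, whose log2 fold changes were -2.21 (standard error 0.284, adjusted p = 1.92e-04, limma) and -1.73 (standard error 0.149, adjusted p = 4.64e-05, limma).

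**Figure D2:**
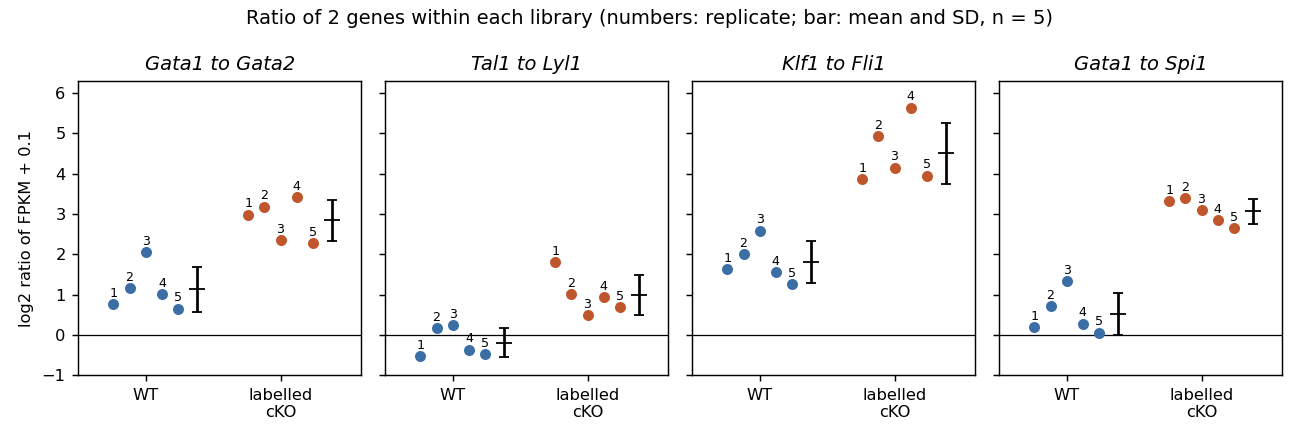
Log2 ratio of FPKM + 0.1 of 2 genes within each library (vertical axis), for Gata1 to Gata2, Tal1 to Lyl1, Klf1 to Fli1 and Gata1 to Spi1, in WT (blue) and labelled cKO (orange) libraries, with replicate numbers and the mean and SD (n = 5). All 5 libraries labelled cKO lie above all 5 WT libraries in each ratio, and WT library 3 is the highest WT library in each.

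TAL1, LYL1, LMO2 and GATA2 are also known to bind together with RUNX1, ERG and FLI1 at enhancers of stem and progenitor cells, a group termed the heptad. Erg was at 14.18, 12.18, 9.91, 12.92 and 12.78 FPKM in WT, against 2.5, 0.99, 2.27, 0.95 and 3.81 in the libraries labelled cKO (log2 fold change -2.68, standard error 0.336, adjusted p = 1.71e-04, limma). Runx1, named here after its values were seen to complete the heptad, was at 9.66 to 13.53 FPKM in WT and at 5.06 to 6.27 in those labelled cKO (log2 fold change -1.11, standard error 0.107, adjusted p = 6.12e-05, limma). Thus Runx1, Erg and Fli1 were called lower, Gata2 and Lyl1 fell by less than 2-fold, Lmo2 did not pass the test and Tal1 rose.

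**Figure D3:**
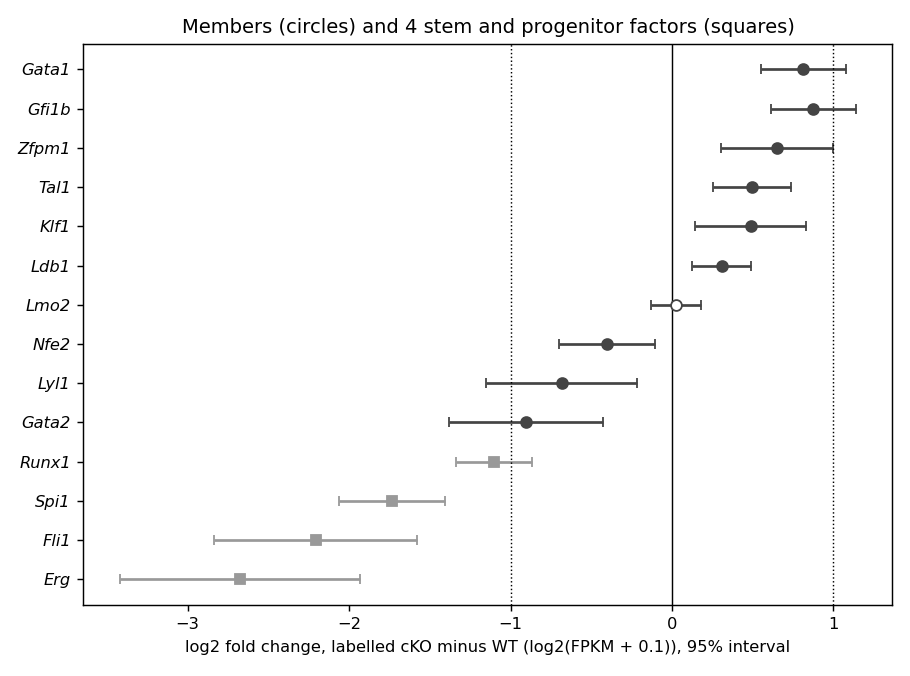
Log2 fold change between libraries labelled cKO and WT with its 95% interval from limma (horizontal axis) for the 10 members (circles, open where the adjusted p is not under 0.05) and for Runx1, Spi1, Fli1 and Erg (squares). Dotted lines mark a 2-fold change. The members lie between -0.90 and 0.88 and the 4 other factors between -2.68 and -1.11.

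Other genes of the pathway were taken from lists written from general knowledge, and are given as counts beside those of all 18742 genes tested. Over all genes tested, 862 (4.6%) were called higher and 3153 (16.8%) lower, or 1581 and 2245 with quantile normalization. On the adjusted p alone, 16.7% of all genes were higher and 28.3% lower. The partners and cofactors of the complex that were tested numbered 20, with a median log2 fold change of 0.02. By limma on the adjusted p alone, 6 of the 20 were higher and 8 lower. At the 2-fold limit, 0 were called higher and 3 lower, the latter close to the share of all genes. Those called lower were Gfi1, the myeloid and stem cell relative of Gfi1b (-2.12), Lmo4, a LIM-only relative of Lmo2 (-1.63), and Cbfa2t3, the corepressor ETO2 of the TAL1 complex (-1.13). Cbfa2t3 went from 11.8 ± 2.11 to 5.85 ± 2.57 FPKM (SD, n = 5 each; adjusted p = 0.0150, limma). Tcf3, which encodes the E-protein partner of TAL1, was at 39 to 55.46 FPKM in WT and at 61.43 to 72.8 in the libraries labelled cKO, and rose by 0.52 on the log2 scale (adjusted p = 0.00125, limma). Of 16 other erythroid regulators, 2 were called higher and 0 lower, with 5 and 4 on the adjusted p alone and a median of -0.02. The 2 were Sox6, a repressor of embryonic globin, which went from 2.69 ± 0.951 to 8.18 ± 1.44 FPKM (SD, n = 5 each; log2 fold change 1.61, adjusted p = 2.14e-04, limma), and E2f2, a cell cycle factor of late erythroblasts, which went from 19.3 ± 4.31 to 48.3 ± 18.7 FPKM (SD, n = 5 each; log2 fold change 1.27, adjusted p = 0.00155, limma).

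Of 29 erythroid genes tested, many of them known targets of GATA1 and KLF1, 15 were called higher and 0 lower. On the adjusted p alone 27 were higher, and the median log2 fold change was 1.01. Of all genes tested, 4.6% were called higher and 16.8% lower, and 16.7% were higher on the adjusted p alone. Alas2, the first enzyme of erythroid heme synthesis, was at 9.38 ± 5.79 FPKM in WT and 53.8 ± 11.1 FPKM in the libraries labelled cKO (SD, n = 5), and its log2 fold change of 2.67 (adjusted p = 1.85e-04, limma) was larger than that of any member. The beta-globin gene Hbb-bt had a log2 fold change of 2.69 and Hbb-bs one of 2.90, and reads can be shared between these near copies. Of 15 stem and progenitor factors, 0 were called higher and 11 lower, with a median of -1.73, and Cd34, a surface marker of progenitors, had the largest fall (-3.32, adjusted p = 2.08e-04, limma). Kit, the stem cell factor receptor and a GATA2 target, was at 36.56 to 54.36 FPKM in WT and at 18.73 to 31.11 in the libraries labelled cKO, and fell by 0.86 on the log2 scale (adjusted p = 0.00170, limma).

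**Figure D4:**
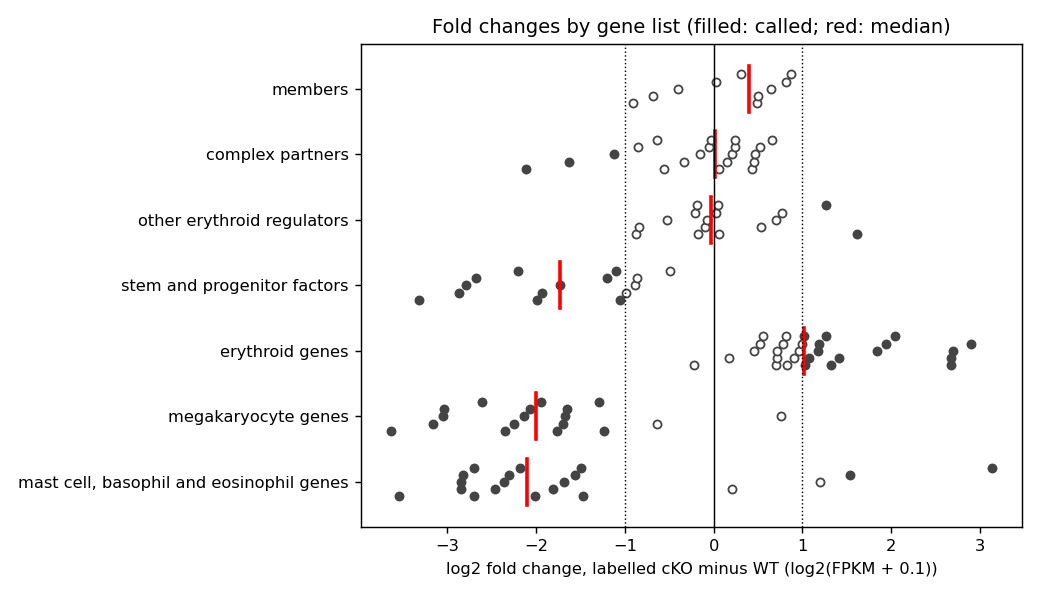
Log2 fold change between libraries labelled cKO and WT (horizontal axis) for each tested gene of 7 lists, 1 point per gene, filled where called at a 2-fold change and an adjusted p under 0.05, with the list median in red and dotted lines at a 2-fold change. All 10 members lie within the dotted lines, the erythroid genes have a median of 1.01, and the stem and progenitor, megakaryocyte and mast cell, basophil and eosinophil lists have medians between -2.10 and -1.73.

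Several members are also used in cells other than erythroblasts, so marker lists of those cells were read beside them. Of all genes tested, 16.8% were called lower and 4.6% higher. For megakaryocytes, which use Gata1, Gata2, Nfe2, Gfi1b, Zfpm1 and Tal1, 16 of 18 genes were called lower and 0 higher. Their summed level was 437.7 to 1840 FPKM in WT and 229 to 316 in the libraries labelled cKO, with WT library 1 the lowest of WT. For mast cells, basophils and eosinophils, which use Gata2 and, in part, Gata1, 16 of 20 tested genes were called lower and 2 higher. The latter, Mcpt4 and Tpsb2, named after their values were seen, were at most at 1.26 and 0.55 FPKM. The summed level of the list was 916 to 2081 FPKM in WT, with WT library 3 lowest, and 160.02 to 775 in those labelled cKO. Tpsab1, Mcpt4 and Mrgprb1, markers of mature mast cells, were listed at 0 in all WT libraries. In those labelled cKO they were at 0 to 0.39, 0.24 to 1.26 and 0 to 0.05 FPKM. These low values thus do not share the direction of the 16 genes called lower. The part of these cells in the falls of Gata2 and Nfe2 was not tested. The sequenced cells had been depleted of lineage-positive cells with a kit whose antibodies are not given in the sources used here. The lineage antibodies that the study used for flow cytometry include Ter119, which marks red cells, and CD41, which marks megakaryocytes. The erythroid list had a summed level of 2471 to 4348 FPKM in WT, highest in WT library 3, and of 6361 to 10469 in those labelled cKO, and its part in the rises was not tested either.

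The members also varied among the libraries of 1 label. In WT, library 3 was the highest of the 5 for Gata1, Klf1, Lmo2, Zfpm1 and Gfi1b and the lowest for Gata2, Nfe2 and Lyl1, and library 5 was the reverse for 7 of these 8 genes, Zfpm1 being the exception. The mean log2(FPKM + 0.1) of the erythroid list was 6.23 in WT library 3 and 5.23 to 5.64 in the other 4, with the lowest value in library 5. Among the libraries labelled cKO, number 1 had the highest erythroid mean (7.07, against 6.52 to 6.99) and the highest Gfi1b and Ldb1, together with the lowest Klf1, Zfpm1, Nfe2 and Lyl1. Library cKO 3 had the highest Gata2, Lmo2, Nfe2 and Lyl1, with an erythroid mean of 6.62. Without WT library 3 and library cKO 1, the counts on the adjusted p alone were again 6 higher and 3 lower.

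**Figure D5:**
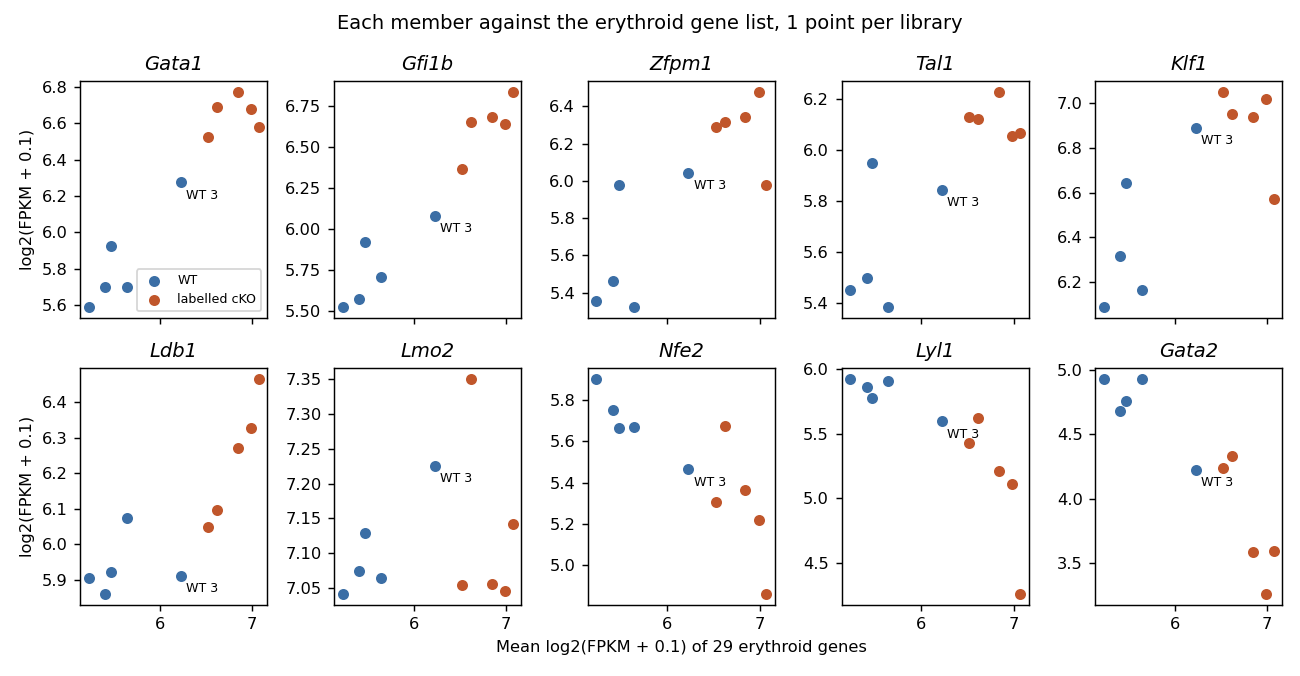
Log2(FPKM + 0.1) of each member (vertical axes, which do not start at 0 and differ in scale) against the mean log2(FPKM + 0.1) of 29 erythroid genes (horizontal axis), 1 point per library, WT in blue and labelled cKO in orange. WT library 3, marked, lies at 6.23, between the other WT libraries (5.23 to 5.64) and those labelled cKO (6.52 to 7.07).

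Likeness of pattern was measured as the root mean square difference between log2(FPKM + 0.1) profiles, each centred on its mean over the 10 libraries, among the 12350 genes whose mean reached 1 FPKM. The nearest gene to Gfi1b was Epor, the erythropoietin receptor, at 0.0712, and the nearest member was Gata1, at 0.119. For Gata1 the nearest were Xrcc5 (0.0733), a DNA repair protein, Glrx5 (0.0828), a mitochondrial iron-sulfur cluster protein, and Tbrg4 (0.0864). For Klf1 the nearest member was Zfpm1, at 0.111, and for Gata2 it was Lyl1, at 0.324. For all 10 members, the 3 nearest genes of the table were closer than the nearest member. These distances rest on a difference between 2 groups and on shared libraries, and carry no test.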

How the data were processed

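RNA-seq of Lin- marrow cells gave 5 libraries labelled WT and 5 labelled cKO, and samples were grouped by their titles. The authors trimmed reads for adapters, primers and quality, aligned them to GRCm39 with HISAT2 2.0.1 and deposited a table of FPKM, 1 value for each gene in each library. The labels also list cutadapt 1.9.1 and HTSeq 0.6.1; the annotation, gene lengths and strand setting are not given in the sources used here. Without strand, reads of a member and of a gene on the other strand cannot be told apart, and GENCODE vM39 places such a gene over all members but Nfe2 (Pprc1, over Ldb1, is the most abundant, at up to 29.46 FPKM).

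FPKM are not counts, so DESeq2 was not run. limma 3.58.1 (eBayes with a trend, R 4.3.3) was fitted to log2(FPKM + 0.1) over the 18742 genes whose mean reached 0.1 FPKM, two-sided, with Benjamini-Hochberg adjustment. A call needed a 2-fold change besides an adjusted p under 0.05. The pseudocount makes the fold change of a low gene too small. The fit was tested on simulated data. Exact permutation tests were run with scipy 1.17.1 (Python 3.11.15). Depth was read from genes with 1 transcript, whose low values came out as whole fragments within 0.2 in 95.9% to 96.3%. No 2 libraries of a group agreed within sampling noise (the lowest chi-square was 4.07 for each degree of freedom). Since the labels give no cultures or animals beyond the title, p-values measure the spread between these samples.

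The members, the lists and the rule for named genes (members, library checks, ratio partners, the 3 genes nearest in pattern, and per list, at a mean of at least 1 FPKM, up to 4 called genes each way and 2 uncalled ones) were chosen with earlier results of these data known. Of the listed genes, 1 (Ahsp) was not matched. Promoter sequences are from GRCm39 at GENCODE vM39 canonical starts. The alternatives were 2 pseudocounts, 2 filters, 3 scalings, no trend, the replicate block, the adjusted p alone, Xist as a covariate, libraries without Xist, and each library left out. The fit without WT 3 and cKO 1 was chosen after seeing the data.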

Additional observations from a re-analysis of the deposited data

Results flagged for a closer look

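In 92 groups of 5 libraries (1 gene or ratio within 1 label), 7 held a library that Dixon's test put apart from its group, where chance gives 4.6. Among members, Klf1 was at 95.19 FPKM in library cKO 1 and at 122.68 to 132.63 in the others with its label, and Ldb1 was at 67.22 FPKM in WT library 1 and at 57.96 to 60.54 in the other WT libraries. Library cKO 1 was also distant in Aqp1, the water channel of red cells, at 484.75 FPKM against 148.36 to 234.07. Library cKO 5 was distant in Hbb-bs, at 563.3 FPKM against 1066.1 to 1234.26, and in Gp6, a platelet collagen receptor, at 0.86 against 0.32 to 0.42. Prss34, a basophil protease, was at 328.66 FPKM in WT library 3 against 671.4 to 722.61, and Nfe2l2, a relative of Nfe2, was at 40.92 in WT library 2 against 37.41 to 38.16.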

How the results depend on the processing

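Gata1 and Gfi1b rose and Gata2 fell under each of the 22 alternatives to the fit, with log2 fold changes of 0.72 to 0.94, 0.78 to 0.98 and -1.04 to -0.77. At the 2-fold limit the members called were 0 higher and 0 lower, and 1 lower (Gata2) with the Xist covariate and in the libraries without Xist. On the adjusted p alone they were 6 and 3. That became 3 and 1 with the Xist covariate, and 2 and 1 in the libraries without Xist, a fit of 7 libraries. With each library left out, 0 were called higher and 0 to 1 lower at the 2-fold limit, and on the adjusted p alone 5 to 6 were higher and 1 to 3 lower (1 without WT library 1). The difference of Lmo2 reversed to -0.018 with an equal sum per library and -0.071 with quantile normalization, and ranged from -0.033 (without library cKO 3) to 0.052 (without WT library 3) with each library left out, and the cause was not tested. Quantile normalization moved the median of all genes from -0.11 to 0.10 and the calls from 862 higher and 3153 lower to 1581 and 2245, and relative to that median Lmo2 was lower still. Genes called over the whole table fell to 356 and 1486 with a pseudocount of 1, 462 and 1827 where the mean had to reach 1 FPKM, and 541 and 2347 without the Xist libraries. Differences of the 4 ratios ranged from 0.98 (Tal1 to Lyl1, without library cKO 1) to 3.05 (Klf1 to Fli1). Among list counts at the 2-fold limit, those that moved by over 1.5 times were the partners called lower, from 3 to 1, and megakaryocyte genes called lower, from 16 to 9, both in the libraries without Xist. Also, partners called higher went from 0 to 1 with quantile normalization, and other erythroid regulators called lower from 0 to 1 without library cKO 1, alone or with WT library 3. Mast cell, basophil and eosinophil genes called higher went from 2 to between 0 and 1 with a pseudocount of 1, a mean that had to reach 1 FPKM or either Xist setting. With the adjusted p alone, partners went from 0 higher and 3 lower to 6 and 8, other erythroid regulators from 2 and 0 to 5 and 4, erythroid genes called higher from 15 to 27, and megakaryocyte genes called higher from 0 to 1. The replicate number as a block gave 6 members higher and 2 lower on the adjusted p alone, Nfe2 being the call that was lost. Same-numbered libraries deviated together with correlations of -0.01 to 0.12. Of the 10 libraries, 5 correlated best with their own number among the 5 libraries of the other label. Whether libraries of the same number share a pairing or a batch was not tested, and the titles give only the number. Members lay at 9.48 FPKM or more, so depth did not limit their values.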
